A study of Mus musculus with 31 samples.

Results

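The genes described here encode subunits of the AMPA and NMDA receptors, the ligand-gated ion channels that carry most fast excitatory transmission in the brain. They were taken by symbol from the table of gene counts: Gria1, Gria2, Gria3 and Gria4 for AMPA receptors, and Grin1, Grin2a, Grin2b, Grin2c, Grin2d and Grin3a for NMDA receptors. These are 10 of 48795 genes in the table, and all 10 passed the count filter that kept 19529 genes for testing. Total RNA from aliquots of homogenised mouse hemibrains was sequenced in 31 libraries, 13 labelled control and 18 labelled deltamethrin, an insecticide of the pyrethroid class, which prolongs the opening of neuronal sodium channels. The series concerns exposure during development, and asks how gene transcription in the brain differs after it. Strain, genotype, sex, age, dose, route, vehicle, time of collection, litter and batch are not given in the labels used here, and all libraries share the same tissue and preparation. Nothing in the labels says that the samples of a group came from separate animals, so the p-values measure only the spread between these samples.

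AMPA receptors are tetramers of GluA1 to GluA4, the products of Gria1 to Gria4, and their GluA2 subunit, edited at the messenger RNA, makes the channel nearly impermeable to calcium. NMDA receptors need the obligatory GluN1 subunit, the product of Grin1, which binds glycine or D-serine, together with GluN2 subunits that bind glutamate and set the channel's kinetics. In the rodent brain GluN2B and GluN2D predominate early, GluN2A rises after birth, and GluN2C becomes abundant in mature cerebellar granule cells, while GluN3A is a subunit of young synapses.

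In GENCODE M21 (GRCm38) each of these genes is protein-coding. Gria1 lies at chr11:57011387-57330244 on the plus strand and Gria3 at chrX:41400854-41678601 on the plus strand. Gria2 lies at chr3:80681450-80802835 and Gria4 at chr9:4417896-4796234, both on the minus strand. The NMDA receptor genes are all on the minus strand: Grin1 at chr2:25291181-25319187, Grin2a at chr16:9567898-9995560, Grin2b at chr6:135713233-136173511, Grin2c at chr11:115249169-115267243, Grin2d at chr7:45831883-45878378 and Grin3a at chr4:49661611-49845744. The counts are per gene, so splice forms such as flip and flop could not be separated, and the shares below are those of subunit genes within each receptor family. Use of strand in counting is not given in the sources used here, so reads of an antisense gene cannot be told apart from those of its partner. Grin1os, antisense to Grin1, has 2.88% of the Grin1 counts, and Gm45441, antisense to Grin2d, has 13.4% of the Grin2d counts.

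Base composition differs widely between these genes and comes back in the results. The longest annotated transcript of Gria2 has 36.8% G and C, that of Gria3 39.8%, and that of Gria1 48.5%, against 59.4% for Grin1, 62.1% for Grin2c and 64.997% for Grin2d. The RefSeq promoter table (GRCm38.p6) holds 5 of the 10 genes. The 250 bases upstream of the start are shown for Gria2, Grin1 and Grin2c, which follow 3 different patterns across libraries. All are on the minus strand, 5′ to 3′, at chr3:80802836-80803085, chr2:25319188-25319437 and chr11:115267244-115267493. Capitals mark the E-box CACGTG, a palindrome, and the GC box GGGCGG, searched on both strands with overlapping matches counted.
Gria2: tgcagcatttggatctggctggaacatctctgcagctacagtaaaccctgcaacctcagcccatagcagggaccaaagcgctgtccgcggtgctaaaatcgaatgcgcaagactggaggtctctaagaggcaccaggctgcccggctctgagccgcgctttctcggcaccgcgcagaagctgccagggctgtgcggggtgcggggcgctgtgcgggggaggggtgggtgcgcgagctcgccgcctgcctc
Grin1: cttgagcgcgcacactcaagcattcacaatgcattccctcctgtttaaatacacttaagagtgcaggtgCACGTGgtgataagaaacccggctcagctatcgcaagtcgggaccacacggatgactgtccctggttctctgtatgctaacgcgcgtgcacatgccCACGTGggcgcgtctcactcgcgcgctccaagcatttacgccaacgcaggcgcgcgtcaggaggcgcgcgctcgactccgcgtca
Grin2c: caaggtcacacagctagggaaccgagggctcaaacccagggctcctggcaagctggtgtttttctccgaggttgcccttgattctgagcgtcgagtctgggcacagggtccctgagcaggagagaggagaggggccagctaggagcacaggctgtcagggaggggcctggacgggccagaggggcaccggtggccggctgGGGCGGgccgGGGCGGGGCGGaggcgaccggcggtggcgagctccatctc
The Grin1 window holds 2 E-boxes, the Grin2c window 3 GC boxes of which a pair overlaps, and the Gria2 window neither motif. Among 32851 windows of the same length, 6.0% hold CACGTG, 0.43% hold it 2 or more times, and 32.7% hold GGGCGG on either strand. The upstream windows of these 3 genes have 64.8% (Gria2), 58.8% (Grin1) and 68.8% (Grin2c) G and C, against a median of 52.4%. Of these 3, Gria2 has a GC-rich start and an AT-rich transcript, whereas Grin1 and Grin2c are GC-rich in both. The windows of Gria4 and Grin2d, not shown, hold neither motif and have 58.8% and 54.4% G and C. Their longest transcripts have 44.3% and 64.997%. The Grin2d window lies 11697 bases from the gene start in GENCODE M21.

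Libraries held 17570311 to 38680621 counts (median 30662621). Mitochondrial ribosomal RNA took between 7.32% and 40.2% of counts, and the highest share was in control 2, which also had the lowest total. The labelled tissue was checked against 11 marker lists: every marker of neurons, glia, choroid plexus and blood was detected, and the lowest, Tlx3 of cerebellar granule cells, averaged 0.795 CPM (counts scaled to a common library size). Of the marker lists, all 9 granule cell, all 7 astrocyte and all 5 oligodendrocyte precursor genes had positive fold changes, and all 8 striatal, 7 choroid plexus and 5 blood genes negative ones, none past an adjusted p of 0.05 in edgeR. With the 4 libraries described next left out, all 9 granule cell, 8 striatal and 5 blood genes had the same signs, against 4 of 7 astrocyte genes and 2 of 5 oligodendrocyte precursor genes positive and 6 of 7 choroid plexus genes negative. Of the 8 forebrain projection neuron genes, 2 were positive over all libraries and 0 with the 4 left out. The matching counts were 5 and 5 of 6 for Purkinje cells and 3 and 4 of 6 for inhibitory neurons. They were 2 and 2 of 6 for oligodendrocytes and 3 and 2 of 5 for microglia. Summed granule cell markers ranged from 69.1 to 513 CPM in controls and from 108 to 652 CPM in deltamethrin libraries. The part of these differences in the values below was not tested. In bulk tissue, fewer cells of a type and less RNA per cell cannot be told apart.

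The 4 libraries deltamethrin 1, 2, 3 and 7 stand apart from the other libraries in the balance of long to short transcripts. This balance is the mean log2 deviation of coding genes with a longest transcript over 6000 bases minus that of genes under 2000 bases, with the receptor genes left out. It was 0.51 to 0.75 in these 4 libraries, and at most 0.33 in the others. They were first noticed because Grin2b was highest there, and both the balance and its threshold of 0.5 were chosen after seeing the data. They hold the highest values of Gria1, Grin2a, Grin2b and Grin3a, so leaving them out lowers the deltamethrin mean of those genes by construction. The fold changes, shares, counts of correlated pairs of receptor genes and gene lists are therefore given with and without them.

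Across all genes, edgeR's quasi-likelihood test called 0 of 19529 genes between deltamethrin and control at an adjusted p under 0.05 (0% called), with a smallest adjusted p of 0.441. At an unadjusted p under 0.05 it had 853 genes (4.37%), 391 higher (2%) and 462 lower (2.37%), and 0 of the 10 receptor genes were among them. DESeq2 and limma voom called 0 genes as well, with 986 and 847 genes at an unadjusted p under 0.05. The receptor genes thus showed no detectable difference between the groups at this depth and spread. Their 95% intervals, taken over all 10 genes, reach from a fold of 0.839 (Grin1) to one of 1.40 (Grin2b). The log2 fold change was positive for 9 of the 10, with a median of 0.07, beside 50.5% of all genes and a median of 0.0014. Without scaling factors the medians were 0.12 for the receptor genes and 0.043 for all genes. Without the 4 libraries, 3 of the 10 were positive, beside 8661 of the 19156 genes tested in that fit, whose median was -0.0098. The 3 were Gria4 at 0.07, Grin2c at 0.05 and Grin2d at 0.02, and Gria1 (-0.06), Gria2 (-0.03) and Gria3 (-0.09) were among those that turned negative.

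Among the AMPA receptor genes, Gria1, whose product is added to synapses during potentiation, had 236, 328 and 380 CPM (lowest, median and highest) in controls and 249, 320 and 461 CPM in deltamethrin libraries. The means were 318 ± 48.2 (SD, n = 13) and 337 ± 69.1 (SD, n = 18), a log2 fold change of 0.08 ± 0.10 (SE, edgeR adjusted p = 0.852). The groups overlapped over most of their range, and the 4 highest values were those of deltamethrin 2, 1, 3 and 7. Gria2, which sets calcium permeability, had 253, 287 and 428 CPM in controls and 224, 310 and 415 CPM in deltamethrin libraries. Its log2 fold change was 0.05 ± 0.09 (SE, edgeR adjusted p = 0.903), and the control range enclosed the highest deltamethrin value. Gria3 had 71.6, 95.8 and 142 CPM in controls and 72.1, 99.6 and 161 CPM in deltamethrin libraries, a log2 fold change of 0.06 ± 0.11 (SE, edgeR adjusted p = 0.904). Both ranges start at nearly the same level.

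Gria4, whose product is typical of fast-spiking interneurons and of the cerebellum, came nearest to a difference. It had 74.2, 87.2 and 99.0 CPM in controls and 61.3, 93.6 and 130 CPM in deltamethrin libraries. The means were 86.6 ± 8.63 (SD, n = 13) and 96.7 ± 18.004 (SD, n = 18), and 13 of 18 deltamethrin libraries were above the control median. The log2 fold change was 0.16 ± 0.08 (SE), with a 95% interval of -0.0099 to 0.33 and edgeR's unadjusted p of 0.0643 (adjusted p = 0.813). The deltamethrin libraries spread both below and above the control range, so the control range lies wholly inside theirs. With no count filter the unadjusted edgeR p was 0.0480 (adjusted p = 0.753). It also fell under 0.05 in 6 of 31 fits that each left out 1 library, with the smallest value, 0.0172, without deltamethrin 14, which holds the lowest Gria4 level. With the granule cell marker score as a covariate, the log2 fold change was 0.10, and with the 4 libraries left out it was 0.07.

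Grin1, the obligatory NMDA receptor subunit, had 81.4, 140 and 184 CPM in controls and 81.6, 124 and 212 CPM in deltamethrin libraries. The means were 134 ± 30.8 (SD, n = 13) and 135 ± 38.1 (SD, n = 18), a log2 fold change of 0.0092 ± 0.13 (SE, edgeR adjusted p = 0.988). The groups overlapped over most of their range. Deltamethrin 1, 7, 11 and 2, at 212, 195, 193 and 188 CPM, lay above the highest control, at 184 CPM. The sign of so small a log2 fold change turned in 8 of 31 fits that each left out 1 library (lowest -0.040, without control 2). It also turned with the 4 libraries of high long-transcript balance, deltamethrin 1, 2, 3 and 7, left out (-0.14). Grin3a, whose subunit lowers calcium entry through the receptor, had 41.4, 46.4 and 53.8 CPM in controls and 39.5, 48.9 and 69.9 CPM in deltamethrin libraries. Its log2 fold change was 0.11 ± 0.07 (SE, edgeR adjusted p = 0.813). Of all 10 genes it varied least, with a coefficient of variation of 14.5% over the 31 libraries, and with the 4 libraries left out its log2 fold change was -0.0020.

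Of the GluN2 genes, Grin2a had 192, 246 and 333 CPM in controls and 170, 238 and 415 CPM in deltamethrin libraries, a log2 fold change of -0.0069 ± 0.11 (SE, edgeR adjusted p = 0.990). That sign turned in 15 of 31 fits that each left out 1 library. Grin2b had 189, 292 and 473 CPM in controls and 189, 281 and 680 CPM in deltamethrin libraries. Its means were 310 ± 79.8 (SD, n = 13) and 337 ± 154 (SD, n = 18), a log2 fold change of 0.12 ± 0.18 (SE, edgeR adjusted p = 0.878). Grin2b was the most variable gene of the family, with a 3.61-fold range over libraries, and its deltamethrin mean was higher than the control mean while its median was lower. Deltamethrin 1, 7, 2 and 3 held 680, 584, 575 and 575 CPM, all above the highest control, control 4, at 473 CPM. The log2 fold change of Grin2b was 0.03 by limma voom, 0.02 with the mitochondrial ribosomal RNA share as a covariate, and 0.04 to 0.19 in fits that each left out 1 library. With those 4 libraries left out, the values were -0.25 for Grin2b and -0.20 for Grin2a (edgeR adjusted p = 0.9998 for each). Grin2c had 40.6, 66.4 and 83.3 CPM in controls and 46.6, 65.8 and 90.5 CPM in deltamethrin libraries, a log2 fold change of 0.04 ± 0.10 (SE, edgeR adjusted p = 0.926). Grin2d, the least abundant gene, had 5.91, 13.2 and 18.9 CPM in controls and 8.09, 13.1 and 20.2 CPM in deltamethrin libraries, with a log2 fold change of 0.15 ± 0.14 (SE, edgeR adjusted p = 0.832). For both genes the medians of the groups were nearly equal.

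**Figure D1:**
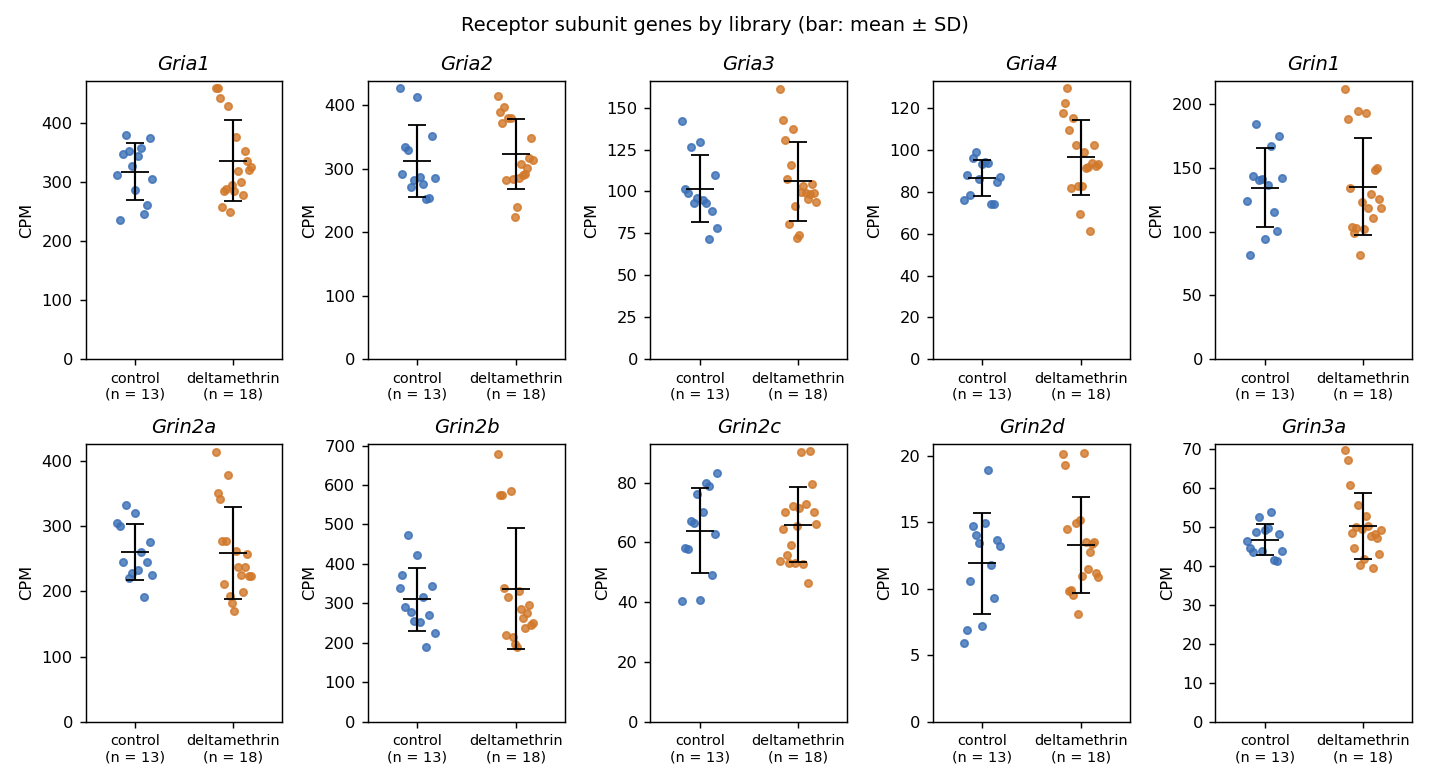
CPM of each receptor gene (vertical axis) in 13 control and 18 deltamethrin libraries, 1 point per library with the mean and SD as bars. The groups overlap in every panel, and in the Grin2b panel 4 deltamethrin libraries lie at 575 to 680 CPM, above the highest control at 473 CPM.

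**Figure D2:**
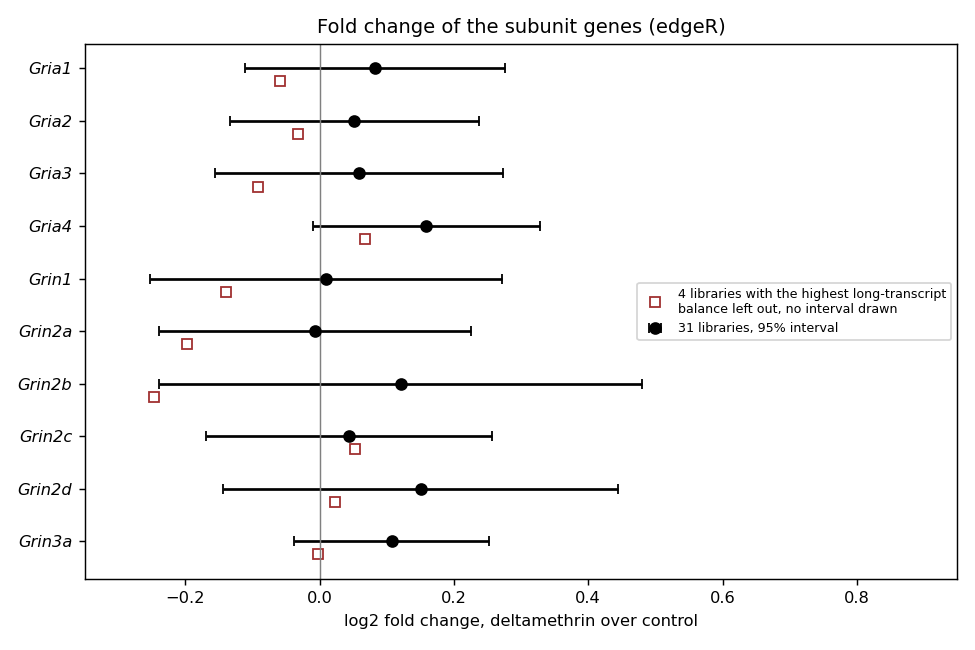
The log2 fold change of each gene, deltamethrin over control, from edgeR (horizontal axis), with its 95% interval over 31 libraries (filled points) and the value with 4 libraries left out (open squares, no interval drawn). Each interval spans 0, and 3 of the 10 open squares lie above 0, against 9 of the 10 filled points.

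Levels can be compared between genes only per length, here as CPM per kilobase of all annotated exons, over the 31 libraries. Gria1 was highest at 54.5 ± 10.1 CPM per kilobase (SD, n = 31), and Gria2 followed at 20.5 ± 3.56. Gria1 was above every other gene in 31 of 31 libraries. Gria2 was above each lower gene in 31 of 31 libraries, except that Grin1 exceeded it in deltamethrin 11 and Grin2b in deltamethrin 1. A middle set followed, in which the spread of each gene overlapped that of its neighbours in rank: Gria4 at 14.7 ± 2.45, Grin2a at 14.5 ± 3.31, Grin1 at 13.9 ± 3.58, Grin2b at 13.1 ± 5.11, Grin2c at 12.9 ± 2.61 and Gria3 at 10.6 ± 2.25. Neighbours in that set kept their order in 14 to 25 of 31 libraries. Gria3, the lowest of the set, was below Grin2a in 31 of 31 libraries, Gria4 in 30, Grin2b in 27, and Grin1 and Grin2c in 25 each. Per kilobase of the longest transcript, Gria3 was instead above Grin2a in 29 of 31. Grin3a at 3.98 ± 0.577 and Grin2d at 1.91 ± 0.553 were lowest, each in the same place in 31 of 31 libraries. The order in the middle depends on the length used: per kilobase of the longest transcript, Grin1 was second at 31.5 ± 8.12 and Gria2 next at 30.7 ± 5.34, while Gria1 stayed highest at 59.4 and Grin2d lowest at 2.34.

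Subunit shares were computed from counts per exonic base. Gria1 made up 54.3 ± 4.04% of the AMPA receptor transcripts in controls (SD, n = 13) and 54.2 ± 3.86% in deltamethrin libraries (SD, n = 18), Gria3 10.6 ± 1.54% and 10.4 ± 0.907%, and Gria4 14.3 ± 1.55% and 14.97 ± 1.58%. The Gria2 share, which bears on how many AMPA receptors could pass calcium, was 17.3%, 20.3% and 26.1% (lowest, median and highest) in controls and 17.2%, 19.9% and 26.5% in deltamethrin libraries. The ranges coincide, and the difference in means was -0.369 ± 0.962 percentage points (SE, permutation p = 0.692, two-sided), and 0.051 points with the 4 libraries left out. In that case the deltamethrin means of the Gria1, Gria3 and Gria4 shares were 53.7%, 10.3% and 15.2%. The log2 ratio of Gria1 to Gria2 differed by 0.02 ± 0.10 (SE, permutation p = 0.834).

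Within the GluN2 genes, Grin2a took 34.95 ± 3.96% in controls and 33.5 ± 2.56% in deltamethrin libraries, Grin2b 29.8 ± 5.17% and 30.3 ± 5.93%, and Grin2d 4.32 ± 1.29% and 4.68 ± 0.942%. The ratio of Grin2a to Grin2b, which climbs as NMDA receptors mature, averaged 1.19 in controls and 1.13 in deltamethrin libraries. Its log2 value differed by -0.08 ± 0.07 (SE, permutation p = 0.283), with the lowest ratio, 0.825, in deltamethrin 3 and the highest, 1.41, in control 10. With the 4 libraries left out, the log2 difference was 0.03. The Grin2c share was 18.4%, 29.8% and 43.8% in controls and 16.6%, 33.1% and 43.1% in deltamethrin libraries, a difference of 0.629 ± 2.72 points (SE, permutation p = 0.813). With the 4 libraries left out, that difference was 3.51 points (permutation p = 0.169), and the deltamethrin means of the Grin2a, Grin2b and Grin2d shares were 33.2%, 27.5% and 4.80%. Over these 4 share and ratio tests every adjusted p was 0.834. The shares themselves hang on length: Grin2c averaged 31.3% per exonic base but 10.5% of raw counts, and Gria2 20.5% per exonic base but 37.8% of raw counts. So does the ratio of Grin2a to Grin2b. Over the 31 libraries it averaged 1.16 per exonic base, 0.834 from raw counts and 1.37 per base of the longest transcript.

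**Figure D3:**
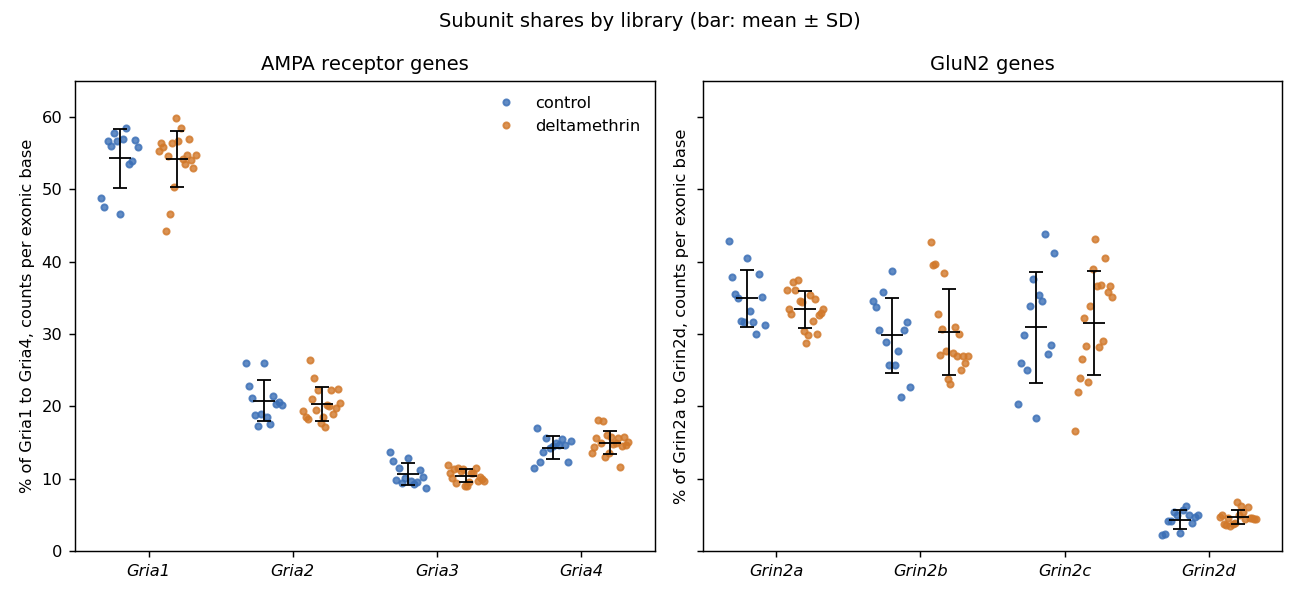
Share of each gene within Gria1 to Gria4 (left) and within Grin2a to Grin2d (right), in percent of counts per exonic base (vertical axis), 1 point per library with mean and SD as bars. Control and deltamethrin points overlap for each gene, and the Grin2c share runs from 16.6% to 43.8%.

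Although no group difference was detectable, libraries differed among themselves, and many receptor genes varied together. Of the 45 pairs of receptor genes, 33 were correlated across the 31 libraries at an adjusted p under 0.05 (Pearson's r of log2 CPM, permutation test, adjusted over 45 pairs), and 5 had a negative r. Without the 4 libraries, 20 of the 45 passed over 27 libraries, and 9 had a negative r. Among the pairs that passed only with them were Gria1 and Gria2 (r = 0.428, and 0.129 without them), Gria1 and Gria3 (0.612 and 0.292) and Grin1 and Grin2a (0.490 and 0.221). Grin2a and Grin2b, the main GluN2 genes of the forebrain, were the closest pair, with r = 0.972 and rho = 0.967 (permutation p = 1e-05 for each, the smallest that the permutations can give, adjusted p = 3.46e-05 and 5.62e-05). Their r was 0.960 within controls, 0.982 within deltamethrin libraries, 0.960 without the 2 libraries farthest from the median, and 0.963 with the 4 libraries left out. Gria3 followed both of them, with r of 0.917 to Grin2a (rho = 0.884) and 0.913 to Grin2b (rho = 0.896). Gria2 and Gria3 gave r = 0.892 and rho = 0.903. The transcripts of these 4 genes hold between 36.8% (Gria2) and 45.7% (Grin2b) G and C. Gria4, at 44.3%, lies within that range, but its r to the 4 genes was 0.572 (Gria2) to 0.695 (Grin2b). With the 4 libraries left out, it was 0.402 (Gria3) to 0.480 (Grin2a).

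Gria1, Grin1 and Grin2d were also correlated with one another, but were not a separate set. Gria1 had r = 0.718 with Grin2d, 0.804 with Grin3a and 0.694 with Grin2b. Grin3a had r = 0.790 with Grin2b and 0.723 with Grin2a. With the 4 libraries left out, these r were 0.645, 0.591, 0.333, 0.494 and 0.446. Gria1 and Grin1 gave r = 0.880 and rho = 0.901 (permutation p = 1e-05, adjusted p = 3.46e-05 and 5.62e-05), with 0.895 within controls, 0.888 within deltamethrin libraries, 0.850 without the 2 farthest libraries and 0.899 with the 4 libraries left out. Grin1 and Grin2d gave r = 0.806 and rho = 0.796. For Grin1 and Grin2b, whose products assemble into one receptor, r was 0.529 and rho 0.470 over all libraries, and r was 0.029 within controls, 0.741 within deltamethrin libraries and 0.265 with the 4 libraries left out. The difference between the groups in that r was not tested. Grin2c ran against Gria2 (r = -0.383, permutation p = 0.0331, adjusted p = 0.0451), but its rho of -0.333 did not pass (adjusted p = 0.0878), and r was -0.704 within controls and -0.135 within deltamethrin libraries.

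**Figure D4:**
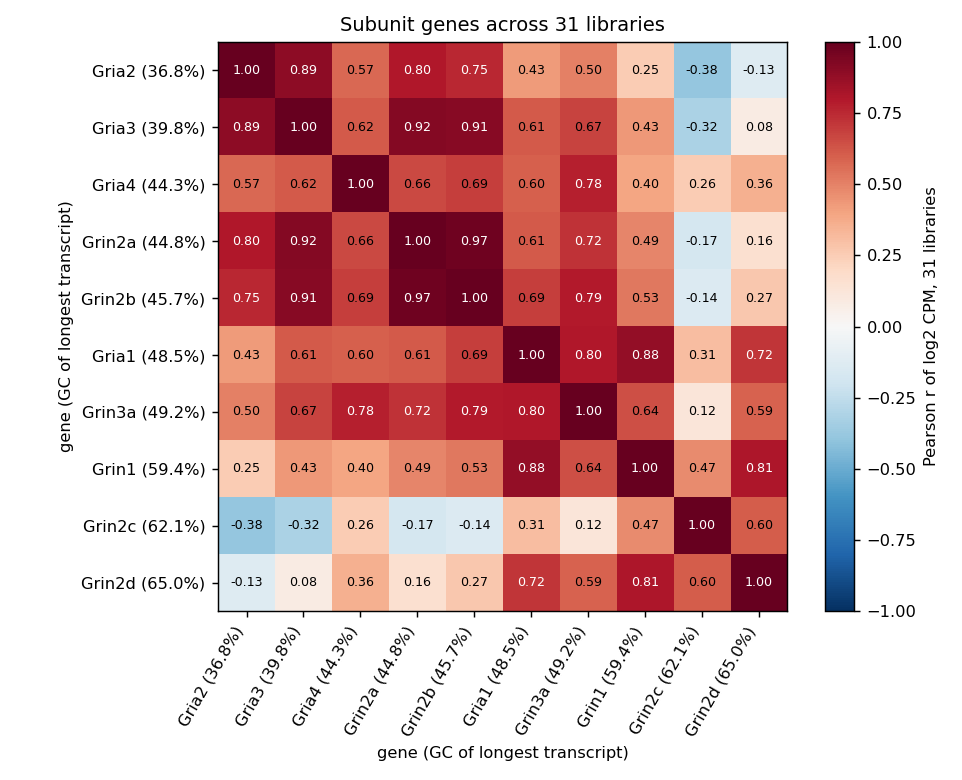
Pearson's r of log2 CPM for each pair of receptor genes over 31 libraries, with genes ordered on both axes by the GC content of the longest transcript, lowest first. Grin2a and Grin2b have the highest value (0.97), and the negative values lie between Grin2c or Grin2d and genes with AT-richer transcripts.

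Each of 3 measures of library composition was set against each gene, 30 relations in all, of which 10 had an adjusted p under 0.05, and 9 with the 4 libraries left out. The share of mitochondrial ribosomal RNA, on a log scale, went with lower Grin1 (r = -0.913, rho = -0.895), lower Grin2d (r = -0.860, rho = -0.871) and lower Gria1 (r = -0.824, rho = -0.863). Each of these had a permutation p of 1e-05, the smallest possible, and an adjusted p of 7.5e-05. They held within controls (-0.906, -0.857 and -0.807), within deltamethrin libraries (-0.955, -0.878 and -0.880), and without the 2 farthest libraries (-0.906, -0.819 and -0.822). Grin3a (r = -0.627, rho = -0.638), Grin2c (r = -0.525, rho = -0.554) and Gria4 (r = -0.438, rho = -0.571) passed as well. Gria4 no longer passed with the 4 libraries left out (r = -0.277, adjusted p = 0.303), while Grin1, Grin2d and Gria1 had r of -0.900, -0.829 and -0.822. Grin2a and Grin2b did not pass, with r of -0.324 and -0.384 over all libraries, and -0.035 and -0.086 with the 4 libraries left out. Their r was 0.352 and 0.210 within controls and -0.772 and -0.770 within deltamethrin libraries, which include those 4. The difference between the groups in these r was not tested. That share itself was 16.2 ± 9.12% in controls and 14.4 ± 4.98% in deltamethrin libraries (permutation p = 0.516).

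Grin2c rose with the markers of cerebellar granule cells, the neurons it is known from. Against the mean log2 CPM of the 9 markers it had r = 0.834 and rho = 0.855 (permutation p = 1e-05, adjusted p = 7.5e-05), with 0.830 within controls, 0.844 within deltamethrin libraries, 0.832 without the 2 farthest libraries and 0.851 with the 4 libraries left out. Gria4, also a cerebellar subunit, had r = 0.556 and rho = 0.578 (permutation p = 0.00115, adjusted p = 0.00493 for r), and r = 0.405 without the 2 farthest libraries. Grin1 (rho = 0.545, adjusted p = 0.00637) and Gria1 (rho = 0.515, adjusted p = 0.0109) passed for rho but not for r (0.410, adjusted p = 0.0564, and 0.374, adjusted p = 0.0865). Grin2d had r = 0.576 and rho = 0.491 over all libraries, but r was 0.851 within controls and 0.213 within deltamethrin libraries. The granule cell score averaged 4.27 ± 0.80 log2 CPM in controls and 4.56 ± 0.64 in deltamethrin libraries (permutation p = 0.286), and with that score as a covariate the log2 fold change of Grin2c was -0.052. Grin1 was the only gene of the 10 tied to the 8 forebrain projection neuron markers at an adjusted p under 0.05 (r = 0.472, rho = 0.461, permutation p = 0.00741, adjusted p = 0.0247 for r). Without the 2 farthest libraries its r fell to 0.337. It was 0.515 within controls, 0.477 within deltamethrin libraries and 0.517 with the 4 libraries left out.

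A further 20 relations, with the long-transcript balance and a balance of low-GC (under 45%) to high-GC (over 55%) transcripts, were added after seeing the data and are given as a description, with no test. Since the long-transcript balance was taken up because of Grin2b, its relation to these genes is no separate evidence. Its r was highest for Gria1 (0.903), Grin3a (0.874) and Grin2b (0.849) and lowest for Grin2c (0.190). With the 4 libraries left out, r was 0.7997 for Gria1, 0.710 for Grin3a, 0.643 for Grin2b and 0.294 for Grin2c. The low-GC balance divided the family: r was 0.735 for Gria2 (rho = 0.740) and 0.608 for Gria3 (rho = 0.615), and -0.635 for Grin2c (rho = -0.593) and -0.552 for Grin2d (rho = -0.492). For Grin1 r was -0.383 and rho -0.348. As a description across the 10 genes, which share the same libraries, the GC content of a gene's transcript and that r were themselves related with r = -0.974. Because the balance is defined by transcript GC content, this relation and the division of the family follow in part from its construction. They are no separate evidence. The Gria2 share of AMPA receptor transcripts also went with the low-GC balance (r = 0.685, rho = 0.580) and the mitochondrial share (r = 0.647, rho = 0.735), and the Grin2c share went against the low-GC balance (r = -0.686, rho = -0.647), among 9 share relations added likewise. No difference in the mean of either balance was detected between groups (permutation p = 0.219 for length and 0.286 for GC). Since both balances were added after seeing the data, these p-values cannot show that the groups are alike in them. The long-transcript balance was -0.086 ± 0.237 (SD) in controls and 0.062 ± 0.373 in deltamethrin libraries, with 0 and 4 libraries above 0.5. What part library composition or preparation has in the levels of these genes was not tested.

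**Figure D5:**
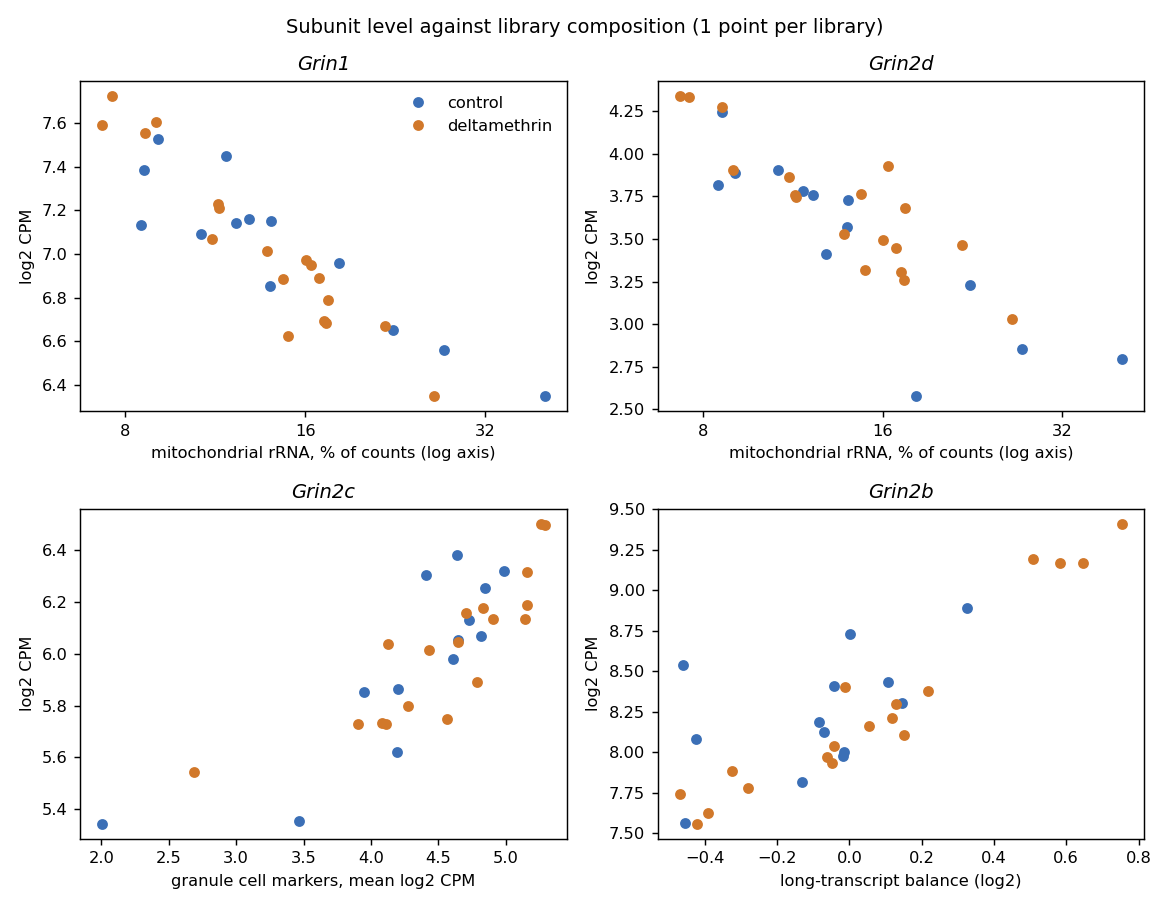
The log2 CPM (vertical axes) of Grin1 and Grin2d against the mitochondrial ribosomal RNA share (log axis), of Grin2c against the granule cell marker score, and of Grin2b against the long-transcript balance, 1 point per library coloured by group. Points of both groups are mixed along each band, with r of -0.913, -0.860, 0.834 and 0.849, and 4 deltamethrin libraries stand apart at the right of the Grin2b panel.

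The genes whose levels were most like each receptor gene were ranked by Pearson's r of log2 CPM over the 31 libraries among 11854 genes, as a description. Grin1 was followed most closely by Sez6l2 (r = 0.974), Adar (r = 0.973), an RNA-editing enzyme, and Gcn1l1 (r = 0.972), and 314 genes had r over 0.9. Gria1 was followed by Bace1 (r = 0.966), the beta-secretase of amyloid precursor protein, Abl2 and Arid1a, with 298 genes over 0.9. Nearest to Grin2b were Cacna1e (r = 0.972), a voltage-gated calcium channel, Tanc2 and Mycbp2, and to Grin2a Mycbp2 (r = 0.965), Gm7328 and Tanc2, so the 2 lists share Tanc2 and Mycbp2. Slc2a13 (r = 0.962) and Cnksr2 were among the nearest to Gria3, and Osbpl8 (r = 0.934), Ranbp2 and Fnip1 led for Gria2. Grin3a was nearest to Pdgfra (r = 0.930), the defining receptor of oligodendrocyte precursors, Megf10 and Tnks. Grin2d was nearest to Slc6a9 (r = 0.952), the glycine transporter GlyT1, Nefh, a neurofilament, and Kcnh2. Gria4 with Mindy2 (r = 0.937), Hook3 and Slc4a4, and Grin2c with Cdc42bpg (r = 0.919), Tprn and Mmp24, had few close companions, with 4 and 1 genes over 0.9. These counts and r rest on all 31 libraries and are not given with the 4 libraries left out. Within controls, r of Gria4 was 0.781 with Mindy2, 0.633 with Hook3 and 0.909 with Slc4a4. That of Grin3a was 0.805 with Pdgfra, 0.812 with Megf10 and 0.846 with Tnks.

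The partners of these receptors were read from 8 lists of 84 genes, all of which were tested. At an adjusted p under 0.05 in edgeR 0 of them passed, and 1 (1.19%, beside 4.37% of all genes) had an unadjusted p under 0.05. That gene was Camk2d, a subunit of the calcium/calmodulin-dependent kinase that phosphorylates GluA1 and binds GluN2B. It had 64.9, 81.8 and 98.4 CPM in controls and 71.6, 93.6 and 126 CPM in deltamethrin libraries, a log2 fold change of 0.21 ± 0.08 (SE, edgeR p = 0.0168, adjusted p = 0.813). The groups overlapped, with 13 of 18 deltamethrin libraries above the control median. Its log2 fold change with the 4 libraries left out was 0.09 (edgeR p = 0.200, adjusted p = 0.9998), and Dlgap2, a scaffold gene, was the 1 list gene with an unadjusted p under 0.05 (log2 fold change -0.15, edgeR p = 0.0169, adjusted p = 0.9998). The 15 AMPA auxiliary subunits, which include the stargazin family, had 9 positive and 6 negative log2 fold changes with a median of 0.02. Of 22 postsynaptic scaffold and kinase genes, 15 were positive (median 0.04), and of 8 genes of glutamate synthesis and transport, 6 (median 0.09). Of the 7 metabotropic receptors 5 were positive (median 0.0079), of 3 RNA editing enzymes 2 (median 0.06), and of 5 genes that supply or clear glycine and D-serine 3 (median 0.0030). The 15 genes of AMPA receptor assembly and trafficking had 6 positive and 9 negative values (median -0.03), and the 9 kainate and delta receptor genes 3 and 6 (median -0.02). Without scaling factors, which raised the median of all genes from 0.0014 to 0.043, every list median was higher too, and these 2 became 0.0055 and 0.03. All 8 list medians were negative with the 4 libraries left out, from -0.09 for kainate and delta receptors to -0.01 for glycine and D-serine, beside -0.0098 for all genes.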

How the data were processed

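The authors deposited raw counts per gene, whole numbers without normalization, for 48795 Ensembl genes in 31 libraries. Per the submitters' processing notes, Trimmomatic, HISAT2, SAMtools and MultiQC were used with the build GRCm38. The counting tool, annotation and use of strand are not given in the sources used here. Libraries were grouped by the labelled agent, and replicate numbers follow sample order. IDs were matched to GENCODE M21 (48435, or 99.3%), whose names were used for 243 symbols that differed.

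Genes were kept by edgeR's filterByExpr (edgeR 4.0.16, R 4.3.3, minimum count 10, minimum total 15). Deltamethrin was compared with control by the quasi-likelihood F-test with TMM scaling, robust fitting, no covariates and Benjamini-Hochberg adjustment over all genes tested. The code was tested on simulated data. A prior count of 2 was used for log2 CPM, and all CPM values rest on library sizes after TMM scaling. Shares and correlations were tested with 100000 permutations, two-sided, and adjusted within each family stated. Alternatives used DESeq2 1.42.0, limma 3.58.1, other scaling, filters, covariates and leaving out each library. All 10 receptor genes are named, with list genes at an unadjusted p under 0.05 (at most 3 a list) and the 3 genes most alike with a mean of at least 5 CPM, of which 1 is not reported here. The genes and lists were chosen with earlier results of these data known.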

Additional observations from a re-analysis of the deposited data

How the results depend on the processing

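Under 10 other settings of the fit and 31 fits without 1 library, 0 genes were called, with smallest adjusted p-values of 0.0531 (DESeq2) and 0.0521 (edgeR without control replicate 5). Genes at an unadjusted p under 0.05 (853 of 19529) numbered 1948 with no count filter, a fit that tested more genes, and 1796 with the mitochondrial share as covariate. They numbered 407 of 19156 tested with the 4 libraries left out, and 526 (without control 10) to 1389 (without deltamethrin 9) in leave-one-out fits. Receptor genes among them (0) numbered 1 with no count filter (Gria4), 1 with the 4 libraries left out (Grin2a, unadjusted p = 0.0394, lower by construction) and 0 to 1 in leave-one-out fits. With the 4 libraries left out, an alternative chosen after seeing the data, log2 fold changes turned to -0.059 (Gria1), -0.033 (Gria2), -0.092 (Gria3), -0.14 (Grin1), -0.25 (Grin2b) and -0.0020 (Grin3a). Grin1 was -0.055 with either the mitochondrial or the granule marker covariate and -0.040 to 0.064 in leave-one-out fits. Grin2a was 0.00019 with no count filter, 0.061 with unscaled libraries and -0.054 to 0.035 in leave-one-out fits. Grin2c was -0.052 with the granule marker covariate and 0.00089 to 0.081 in leave-one-out fits, which gave 0.019 to 0.107 for Gria3 and 0.037 to 0.194 for Grin2b. The Gria2 share difference was 0.051 points with the 4 libraries left out and -0.727 to 0.073 in leave-one-out, and that of Grin2c -0.413 to 1.70. The log2 Gria1 to Gria2 difference was -0.027 by medians, -0.022 with the 4 libraries left out and -0.026 to 0.060 in leave-one-out. The log2 Grin2a to Grin2b difference was 0.034 by medians and 0.032 with the 4 libraries left out. Without scaling factors 25 of 30 composition relations passed (10 with TMM), and r turned to 0.139 for Gria2 and 0.169 for Gria3 with granule markers and 0.442 for Gria4 with forebrain markers. The cause of these changes was not tested. No paired analysis was possible because the labels give no number shared between the groups. A fold within the intervals given is compatible with these libraries, and the spread between libraries limits what could be called.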
